A study of Ovis aries with 18 samples.

Results

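The 9 lambs born to ewes on a gossypol-rich cottonseed diet were compared with the 4 control lambs whose testes held little ADAM11 RNA. The aim was to see which differences between the maternal diets were still visible when the control testes were nearer in state, judged by that gene. All 9 gossypol lambs entered the comparison. The control lambs were chosen by a measured value: those with ADAM11 at or under 300 CPM were kept, where CPM is the count per 1000000 counts of the file. These were lambs H31, H32, H39 and H44. The comparison therefore covered 13 of the 18 lambs, and the 5 control lambs above the limit (H06, H20, H22, H29 and H37) were used only for reference.

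All 18 animals were male lambs of Santa Ines ewes, sampled at 60 days of age, and polyadenylated RNA of the whole testicle was sequenced. Exposure was through the mother, in the womb and through the milk up to sampling: 9 lambs had mothers fed cottonseed, which carries the polyphenol gossypol, and the 9 control lambs had mothers whose ration rested on soy and maize. Every lamb of both diets was also offered hay and a corn and soybean concentrate, and the diets differed in the whole cottonseed ration and not in purified gossypol. File totals ran from 15240624 to 20660132 counts in the gossypol lambs and from 14468612 to 19616625 counts in the low-ADAM11 control lambs.

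The testis of a young ram is built of cords of Sertoli cells around early germ cells, with Leydig, peritubular and vascular cells between the cords. As the animal approaches puberty the germ cells enter meiosis and switch on many genes that other tissues hardly use, among them the cancer-testis antigens. Whole-tissue RNA therefore moves with the maturity of the testis as well as with a treatment. In such bulk samples, fewer cells of a type and less RNA per cell cannot be told apart.

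ADAM11, a member of the disintegrin and metalloprotease family that lacks protease activity, was the gene used for the choice, and its values are given only as a description. In CPM of the file total, the gossypol lambs held 16.2 in H41, 18.3 in H08, 33.2 in H35, 35.7 in H47, 38.2 in H25, 54.3 in H10, 110.3 in H12, 164.8 in H48 and 196.5 in H01. The 4 control lambs held 38.3 in H44, 101.7 in H39, 131.1 in H31 and 144.3 in H32. The last of these was the lamb just inside the limit, and the first outside it was H37 with 516.5, followed by the other control lambs up to 1379.9 in H22. No lamb of either diet lay between 196.5 and 516.5, and the 4 control lambs all lay inside the range of the gossypol lambs. The groups were nonetheless not matched in ADAM11. The median was 116.4 in the 4 control lambs and 38.2 in the gossypol lambs, and the means were 103.8 and 74.2. Differences between these groups are therefore not differences at equal ADAM11.

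**Figure D1:**
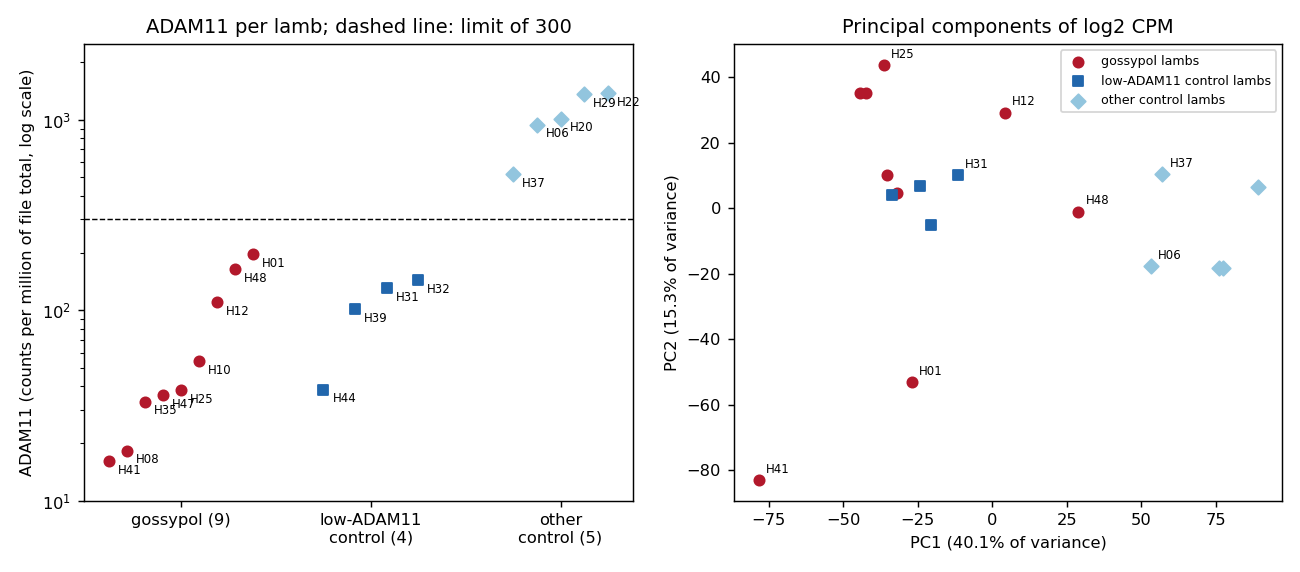
Left, ADAM11 in each lamb in CPM of the file total on a log axis, with the limit of 300 as a dashed line; right, each lamb on the first 2 principal components of log2 CPM. Points are single lambs; the 4 low-ADAM11 control lambs lie among the gossypol lambs in both panels, while the 5 other control lambs lie above the limit and at the right of the first component.

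Across all IDs the 4 control lambs also lay with the gossypol lambs. The first principal component held 40.1% of the variance of log2 CPM over the 18 lambs, and on it the low-ADAM11 control lambs ran from −33.7 to −11.6. The gossypol lambs ran from −78.5 to 28.8 with a median of −35.3, and the other control lambs from 53.2 to 89.0. Gossypol lambs H12 and H48 lay to the right of all 4 low-ADAM11 control lambs, toward the other control lambs. On the second component, with 15.3% of the variance, gossypol lambs H41 (−83.0) and H01 (−53.2) stood apart from the other 16 lambs, so the counts below were also made without them.

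Few IDs differed in size between the gossypol lambs and the low-ADAM11 control lambs. From here CPM is scaled by the trimmed mean of M-values (TMM), and a ratio is the log2 ratio of the mean CPM of the gossypol lambs to that of the control lambs, each with 0.5 CPM added, which understates the ratio of low genes. Folds below are this ratio on a linear scale. Of 18640 IDs that passed the filter on low counts, 36 were at least 2-fold higher in the gossypol lambs (0.193%) and 20 were at least 2-fold lower (0.107%). At 1.5-fold these were 233 IDs higher (1.25%) and 142 lower (0.762%). Against all 9 control lambs, a comparison that shares the 9 gossypol lambs and these 4 control lambs, 148 IDs were 2-fold higher (0.794%) and 248 were 2-fold lower (1.33%). Against the 5 other control lambs alone, 2078 IDs differed 2-fold (11.1%). Without H44 the counts against the remaining 3 low-ADAM11 control lambs were 73 IDs 2-fold higher and 35 lower. With 0.1 CPM added in place of 0.5, 81 IDs were 2-fold higher and 27 lower, and with 2 CPM these were 9 and 10. Since the control lambs had been divided by ADAM11, these counts describe the lambs and carry no test.

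The ranges of the 9 gossypol lambs and the 4 control lambs did not overlap for 15 IDs (0.0805%), 6 of them higher and 9 lower in gossypol lambs. Against the 5 other control lambs the ranges were apart for 763 IDs in the higher and 910 in the lower direction. Without gossypol lambs H41 and H01 the 15 IDs became 68, and without H44 they became 149. Fewer lambs make ranges overlap less by construction, and each of the 4 control lambs left out raised the count, to 29 at the least. Only 1 ID had ranges apart together with a 2-fold ratio (0.00536%), ENSOARG00000007845, which is not paired with a symbol in the tables used here. It held 15.3 CPM in H39, 16.4 in H44, 16.5 in H31 and 24.9 in H32. In the gossypol lambs it ran from 2.87 to 15.3 CPM with a mean of 8.45 ± 4.68 (SD, n = 9), against 18.3 ± 4.47 (SD, n = 4), a log2 ratio of −1.07. The separation was narrow, since gossypol lambs H01 (15.25 CPM) and H47 (15.20) lay just under H39 (15.30), and without H44 there were 14 such IDs. No ID was so separated with scaling by file total or by relative log expression, a filter of 1 CPM in 9 lambs, a pseudocount of 2 CPM, identical IDs collapsed, or without H41.

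The diets as labelled could be tested, over all 18 lambs. With edgeR's quasi-likelihood test and no covariate, no ID passed a false discovery rate (FDR) of 5% (0%), the smallest adjusted p being 0.0835. An FDR of 10% was passed by 332 IDs (1.78%). Without adjustment, 4327 IDs had a p under 0.05 (23.2%), of which 2197 were higher (11.8%) and 2130 lower (11.4%) in gossypol lambs. DESeq2 called 882 IDs at 5%, and edgeR called between 19 and 1271 when H01, H39, H32, H48 or H44 was left out, so the count of calls turned on the tool and on any of 5 lambs.

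When log2 CPM of ADAM11 was added to the same edgeR model as a covariate, the diet term asked which IDs differed between the diets at equal ADAM11, without dividing the control lambs. No ID passed at 5% (0%) or at 10% (0%), the smallest adjusted p being 0.703. Without adjustment, 296 IDs had a p under 0.05 (1.59%), 140 higher (0.751%) and 156 lower (0.837%). DESeq2 called 1 ID in that model. The share of 1.59% lies under the 5% that chance alone would give on average. ADAM11 itself had a diet difference of −3.10 ± 0.68 (SE, log2 scale) without a covariate. The covariate thus overlaps with diet and can take up part of a diet difference. These p-values also condition on a gene measured in the same libraries. An ID that misses the threshold is not thereby shown to be equal in the 2 diets.

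The IDs that the study had listed as different between the diets were then followed. The study called them at an FDR of 1% with edgeR at its defaults. The quasi-likelihood test used here, without a covariate, called none of them at 5%. The list was drawn from these same lambs, so its directions are no independent evidence, and all 84 IDs passed the filter. ADAM11 is 1 of 62 IDs listed as lower in gossypol lambs and was left out here, because it chose the control lambs. The other 61 IDs hold 58 distinct profiles of counts. Their ratio to the low-ADAM11 control lambs had a median of −0.17 (interquartile range −0.42 to −0.08), while the median over all IDs was 0.03. Against all 9 control lambs the median of the 61 was −1.81, and against the other 5 it was −2.42. In the comparison with the low-ADAM11 control lambs 29 of the 61 lay within 0.25 of 0, where 81.7% of all IDs lay, so the list was farther from 0 than IDs at large. Of the 61, 11 lay above 0 and 1 was 2-fold lower. At least 1.5-fold lower were 10 IDs, or 7 distinct profiles, since 4 of the 10, CYP4F21 and 3 IDs without a symbol, have identical counts.

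The 22 IDs listed as higher are given beside them, with no comparison of the lists, since ADAM11, which chose the control lambs, came from the lower list. Their median ratio was 0.79 against the low-ADAM11 control lambs (interquartile range 0.59 to 0.98), 1.35 against all 9 and 1.67 against the other 5. All 22 lay between 0.40 and 2.23, 17 were at least 1.5-fold higher and 4 were at least 2-fold higher. Under the model with ADAM11 as covariate, 14 of these 22 and 7 of the 61 (4 distinct profiles) had an unadjusted p under 0.05, beside 1.59% of all IDs, and none passed the FDR. Both lists were drawn for diet differences in these same lambs, so these counts are no support for a difference. OC90, among the 14, also passed the filter on low counts through its level in the gossypol lambs.

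**Figure D2:**
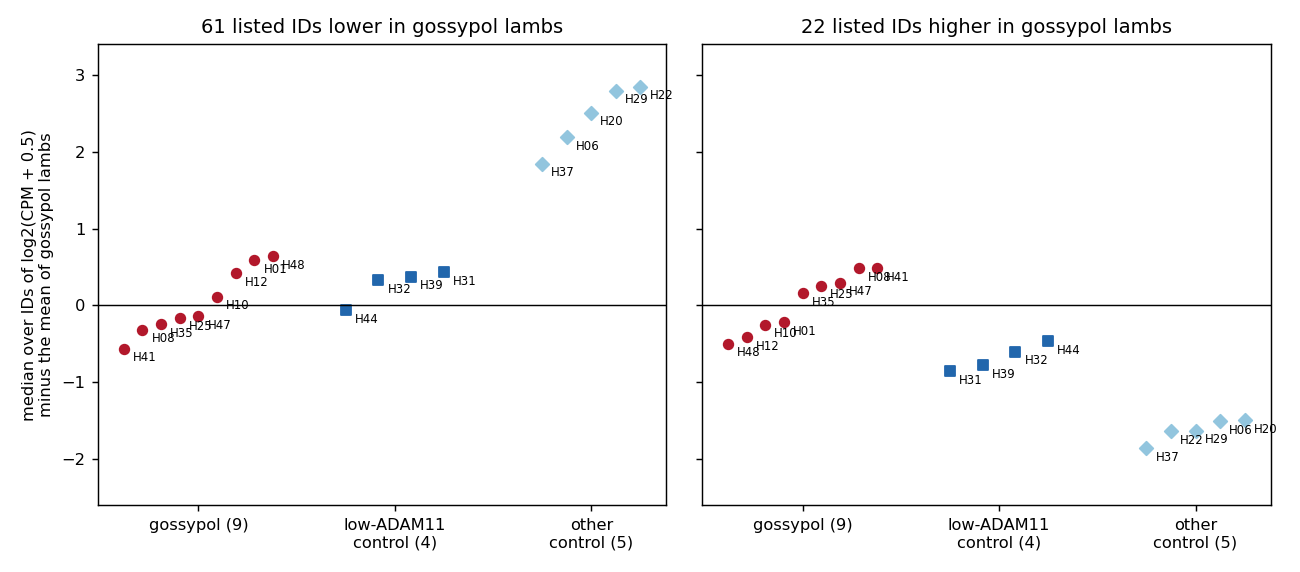
Median over the 61 IDs listed as lower, without ADAM11 (left) and the 22 listed as higher (right) of log2(CPM + 0.5) in each lamb minus the mean of the gossypol lambs, which is the line at 0. Each point is 1 lamb. In the left panel the 4 low-ADAM11 control lambs lie between −0.06 and 0.44, inside the range of the gossypol lambs. All but H44 lie above most gossypol lambs there. In the right panel they lie between −0.85 and −0.46, with H44 above gossypol lamb H48 and the other 3 under every gossypol lamb.

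The plot of list medians gives these values lamb by lamb. For the 61 lower IDs the gossypol lambs ran from −0.56 in H41 to 0.64 in H48, and the control lambs lay at −0.06 in H44, 0.33 in H32, 0.37 in H39 and 0.44 in H31. H32, H39 and H31 lay above every gossypol lamb other than H48, H01 (0.59) and H12 (0.42). For the 22 higher IDs the gossypol lambs ran from −0.50 in H48 to 0.49 in H41, and the control lambs lay at −0.85 in H31, −0.77 in H39, −0.60 in H32 and −0.46 in H44. Thus 3 of the 4 control lambs lay under every gossypol lamb on the higher list, and only H44 lay above H48.

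Among the genes with a symbol, the cancer-testis antigens had ratios to the low-ADAM11 control lambs of either sign. MAGEA10 and MAGEB18 belong to the MAGE family of cancer-testis antigens, and FATE1 is another protein made mainly in testis and in tumours. MAGEA10 held 1.90 CPM in H31, 1.98 in H32, 2.16 in H39 and 2.99 in H44, while the gossypol lambs ran from 2.05 to 6.05 with a median of 3.43. Here 7 of the 9 gossypol lambs lay above all 4 control lambs, so that the ratio was 0.54 against the low-ADAM11 control lambs and −3.36 against all 9. MAGEB18 ran from 0.864 to 6.44 CPM in gossypol lambs and from 1.39 to 2.90 in the 4 control lambs, with a ratio of 0.22 in place of −2.36.

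FATE1 was the one of these antigens with a lower mean in gossypol lambs. It held 51.8 CPM in H44, 74.2 in H39, 161 in H32 and 212 in H31, and in gossypol lambs it ran from 19.5 in H08 through a median of 49.1 to 218 in H01. The means were 87.5 ± 74.2 (SD, n = 9) and 125 ± 74.8 (SD, n = 4), a ratio of −0.51, and the difference of the means is smaller than the SD of either group. At equal ADAM11 its diet difference was −0.02 ± 0.29 on the log2 scale (SE), and with the first principal component as covariate in place of ADAM11 it was −0.45. Leaving out 1 lamb took 2 of these antigens past 1.5-fold: the ratio of FATE1 was −0.69 without H39, −0.77 without H44 and −0.81 without H01, and that of MAGEA10 was 0.68 without H44.

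The testis-enriched genes KIAA1210, CST9L, PRND and VSIG1 had ratios to the low-ADAM11 control lambs of either sign. CST9L encodes a cystatin-like protein, PRND encodes doppel, a relative of the prion protein that male mice need for fertility, and VSIG1 is an immunoglobulin-type adhesion molecule. KIAA1210 held 4.83 CPM in H44, 6.20 in H32, 8.63 in H39 and 9.30 in H31, and in gossypol lambs it ran from 2.21 to 19.3 with a median of 3.75. Its ratio was −0.15, against −3.65 for all 9 control lambs, although 6 gossypol lambs lay under all 4 control lambs, while H48 (13.5) and H12 (19.3) lay above them. CST9L had a ratio of 0.40 in place of −3.21, with gossypol lambs H48 (32.2) and H01 (42.5) above the highest low-ADAM11 control lamb (14.5 in H31). Without H01 alone its ratio was −0.07, so its sign turned on 1 lamb, as did that of MAGEB18 (−0.01 without H01). Ratios as near 0 as those of PRND, LRRC8B and SLC4A5 also changed sign when 1 control lamb was left out. PRND had a ratio of −0.08 in place of −2.37 and VSIG1 of 0.22 in place of −3.41. The latter rested largely on control lamb H22, which held 137 CPM of VSIG1 where the next highest held 34.3, and without it the ratio to the other 8 control lambs was −1.94.

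SLC4A5, a sodium bicarbonate cotransporter, had the largest ratio of all named genes against the 9 control lambs, −4.00, and 0.13 against the 4. It held 0.726 CPM in H32, 1.39 in H44, 1.48 in H31 and 2.16 in H39, and from 1.08 to 2.44 in the gossypol lambs, so that 8 of the 9 gossypol lambs lay inside the control range. The other 5 control lambs ran from 7.95 to 102 CPM. LRRC8B, a subunit of the volume-regulated anion channel, had a ratio of −0.10 in place of −1.30. MAP3K15, a stress-activated kinase, had −0.14 in place of −2.20, and FAM84A had −0.28 in place of −2.12.

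**Figure D3:**
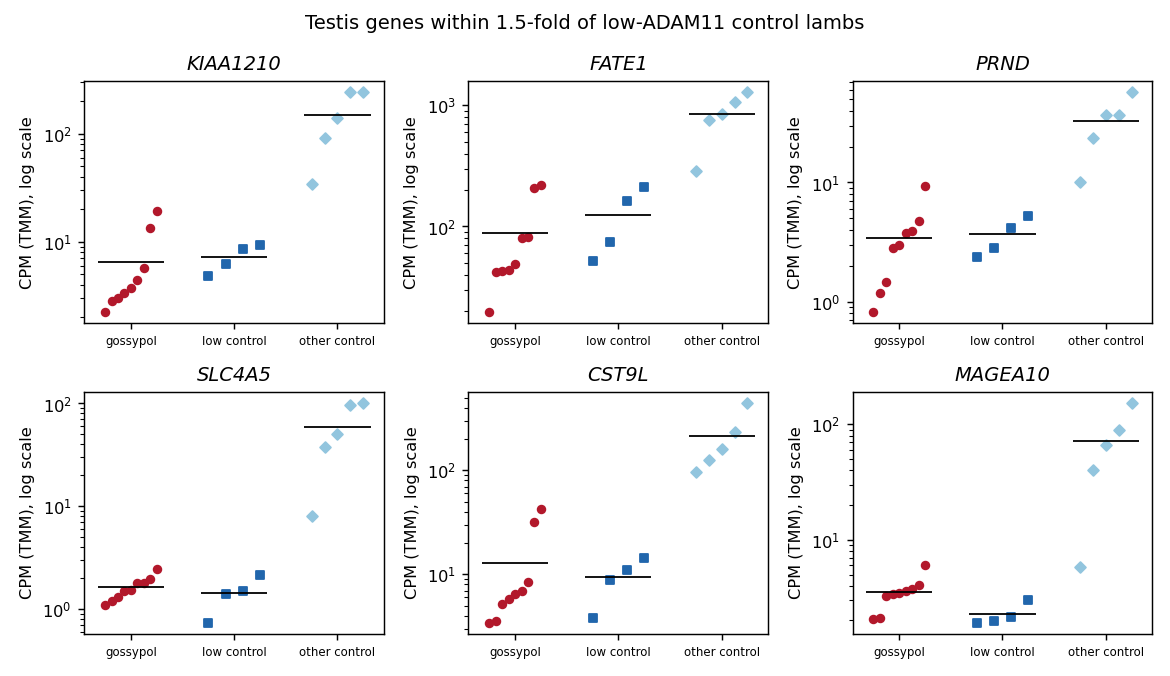
TMM-scaled CPM of 6 testis genes in each lamb, on log axes, for the 9 gossypol lambs, the 4 low-ADAM11 control lambs and the 5 other control lambs; each point is a lamb and each line the group mean. The points of the low-ADAM11 control lambs fall among or beside the gossypol lambs, and the means of both groups, with 0.5 CPM added, are within 1.5-fold in all 6 genes.

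Apart from ADAM11, 13 named genes had been listed as lower, and in 11 of them the mean of the gossypol lambs was within 1.5-fold of the mean of the low-ADAM11 control lambs, with 0.5 CPM added to each. With 0.1 CPM added in its place, MAGEA10 was past 1.5-fold as well (a log2 ratio of 0.62). Of all IDs tested, 98% lay within 1.5-fold, so this share says nothing particular about the 11. CYP4F21 and SERTAD4 were past 1.5-fold. Several of the 11 also had gossypol lambs under all 4 control lambs, 6 of the 9 for LRRC8B, KIAA1210 and FAM84A and 5 for FATE1. CYP4F21 belongs to a family of cytochrome P450 enzymes that hydroxylate fatty acids and eicosanoids. It held 18.7 CPM in H44, 30.3 in H39, 34.97 in H32 and 35.8 in H31, whereas the gossypol lambs held between 7.65 in H08 and 27.5 in H12, with a median of 15.3.

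No gossypol lamb reached H39, and 5 of the 9 lay under H44 as well. The means of CYP4F21 were 17.2 ± 7.54 (SD, n = 9) and 29.9 ± 7.86 (SD, n = 4), a ratio of −0.78 where all 9 control lambs gave −1.57. At equal ADAM11 the diet difference was −0.44 ± 0.16 (SE, log2 scale), with an adjusted p of 0.9998 in edgeR. With the first principal component as covariate in place of ADAM11 it was −0.68, and the gene was not called there either. The ID of CYP4F21 is one of 4 with identical counts in all libraries, which cannot be told apart here.

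SERTAD4, named for its SERTA domain, gave a like picture. It held 2.82 CPM in H44, 4.17 in H39, 5.69 in H31 and 5.94 in H32, and between 1.35 and 4.60 in the gossypol lambs, with 5 of these under H44. The means were 2.84 ± 0.882 (SD, n = 9) and 4.65 ± 1.45 (SD, n = 4), a ratio of −0.63 where all 9 control lambs gave −1.65. At equal ADAM11 the diet difference was −0.52 ± 0.32 (SE), with an adjusted p of 0.9998 in edgeR.

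**Figure D4:**
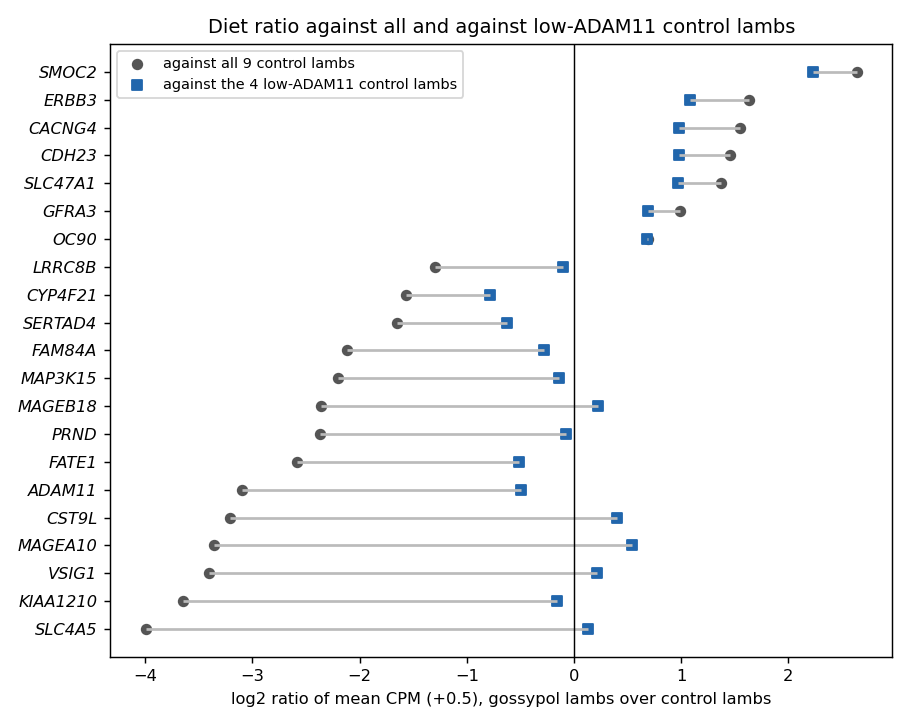
Log2 ratio of mean CPM (with 0.5 CPM added) of the gossypol lambs to all 9 control lambs (circles) and to the 4 low-ADAM11 control lambs (squares) for the 21 genes named from the study; a ratio of 0 is the vertical line. The squares of most lower genes lie near 0, with CYP4F21 (−0.78) and SERTAD4 (−0.63) farthest below it, and the squares of the 7 higher genes lie between 0.68 and 2.23.

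The genes listed as higher remained higher in mean, and all 7 with a symbol from the study were past 1.5-fold against the low-ADAM11 control lambs, with 0.5 CPM added to each mean. They fall into a transporter (SLC47A1), receptors and a matrix protein (GFRA3, ERBB3, SMOC2) and proteins of calcium-dependent adhesion or channels (CDH23, CACNG4), with the otoconial protein OC90 beside them. Of all IDs 1.25% were as much higher, but these genes had been listed because they differed by diet in the same lambs. GFRA3 fell under 1.5-fold without H32 (a log2 ratio of 0.55) and with 2 CPM added in place of 0.5 (0.49). OC90 fell under it with 2 CPM (0.29). In 6 of the 7 the unadjusted p at equal ADAM11 was under 0.05, beside 0.751% of all IDs in that direction, and all had an adjusted p of 0.9998, so none passed the test. This count is no support for a difference, since the genes were listed for one in these lambs. OC90, among the 6, also passed the filter on low counts through its level in the gossypol lambs. In 4 of the 7 the highest of the 4 control lambs was H44, the control lamb with the least ADAM11.

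SLC47A1 encodes a proton-coupled exporter of organic cations, known best from kidney and liver. It held 1.39 CPM in H39, 1.42 in H31, 1.85 in H32 and 3.22 in H44. The gossypol lambs ran from 2.23 in H48 through a median of 4.56 to 6.66 in H01, and 6 of 9 lay above H44. All 9 lay above the other 3 control lambs, and all 9 above the 5 control lambs with high ADAM11, the highest of which held 1.28.

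The means of SLC47A1 were 4.35 ± 1.62 (SD, n = 9) and 1.97 ± 0.858 (SD, n = 4), a 1.96-fold ratio with 0.5 CPM added. Its diet difference at equal ADAM11 was 1.12 ± 0.31 (SE, log2 scale), which shares its lambs and its use of ADAM11 with the ratio of 0.97. It ran from 0.59 to 1.44 when single lambs were left out.

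GFRA3 encodes the co-receptor for the neurotrophic ligand artemin, which signals through RET. It held 1.45 CPM in H32, 2.09 in H39, 2.25 in H31 and 3.44 in H44, and from 2.88 in H12 to 5.45 in H25 in the gossypol lambs. The groups overlapped through H44 alone, above which lay 6 of the 9 gossypol lambs. The means were 4.04 ± 0.805 (SD, n = 9) and 2.31 ± 0.831 (SD, n = 4), a 1.62-fold ratio, and the difference at equal ADAM11 was 0.69 ± 0.22 (SE).

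ERBB3, the neuregulin receptor with a weak kinase, was 2.12-fold higher. It held 3.43 CPM in H32, 4.33 in H31, 7.23 in H39 and 7.33 in H44, and the gossypol lambs ran from 2.15 in H01 through a median of 10.5 to 20.2 in H08. Here 7 gossypol lambs lay above all 4 control lambs, but H01 lay under all 4. The means were 12.4 ± 6.39 (SD, n = 9) and 5.58 ± 1.999 (SD, n = 4).

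SMOC2, a secreted calcium-binding protein of the extracellular matrix, had the largest ratio of the genes named from the study. It held 0.858 CPM in H32, 1.36 in H31, 1.53 in H39 and 6.21 in H44. The gossypol lambs held 1.86 in H10, 5.13 in H25, 5.18 in both H01 and H35, 7.32 in H12, 7.42 in H48, 14.7 in H47, 26.5 in H08 and 48.2 in H41. All 9 lay above the 3 control lambs other than H44, and 5 lay above H44. The means of 13.5 ± 14.98 (SD, n = 9) and 2.49 ± 2.50 (SD, n = 4) gave a 4.68-fold ratio after 0.5 CPM was added to each, but the SD of the gossypol lambs exceeded their mean. The log2 ratio of 2.23 became 2.9998 without H44 and 1.69 without H41.

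CDH23 is a long cadherin known from the tip links of hair cells. It held 25.5 CPM in H32, 30.9 in H31, 42.9 in H44 and 47.8 in H39. The gossypol lambs ran from 22.6 in H01 through a median of 71.7 to 116 in H47, with 7 above all 4 control lambs and H01 again below them. CACNG4, an auxiliary subunit of AMPA receptors and related to calcium channel subunits, overlapped more: 5 gossypol lambs lay above the control range of 3.56 to 5.81 CPM and 2 lay below it, with a 1.98-fold ratio of the means. At equal ADAM11 the diet difference was 0.50 ± 0.23 (SE, log2 scale) for CDH23 and 0.50 ± 0.40 for CACNG4, both under 1.5-fold. The log2 ratio of each was 0.98. For ERBB3 the diet difference was 0.77 ± 0.36 beside a log2 ratio of 1.09, and for SMOC2 1.56 ± 0.63 beside 2.23.

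OC90, a protein of the inner-ear otoconia, was the only one of the genes with a symbol whose ranges were apart. It held 0.278 CPM in H39, 0.358 in H44, 0.396 in H32 and 0.474 in H31, and from 0.593 in H48 to 1.46 in H08 in the gossypol lambs. The filter on low counts asked for about 0.523 CPM by file total in 9 lambs, which all 9 gossypol lambs, none of the 4 control lambs and 1 of the 5 others reached. OC90 was therefore tested because of its level in the gossypol lambs, so its separation is no support for a difference, and a filter of 1 CPM in 9 lambs left it out. The means were 0.901 ± 0.302 (SD, n = 9) and 0.376 ± 0.0815 (SD, n = 4). These rest on 4 to 27 counts per library, so a few reads decide each value, and the pseudocount of 0.5 CPM reduced the log2 ratio to 0.68 while the fitted diet difference at equal ADAM11 was 1.15 ± 0.38 (SE). With 0.1 CPM added in its place the log2 ratio of OC90 was 1.07, and with 2 CPM it was 0.29.

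**Figure D5:**
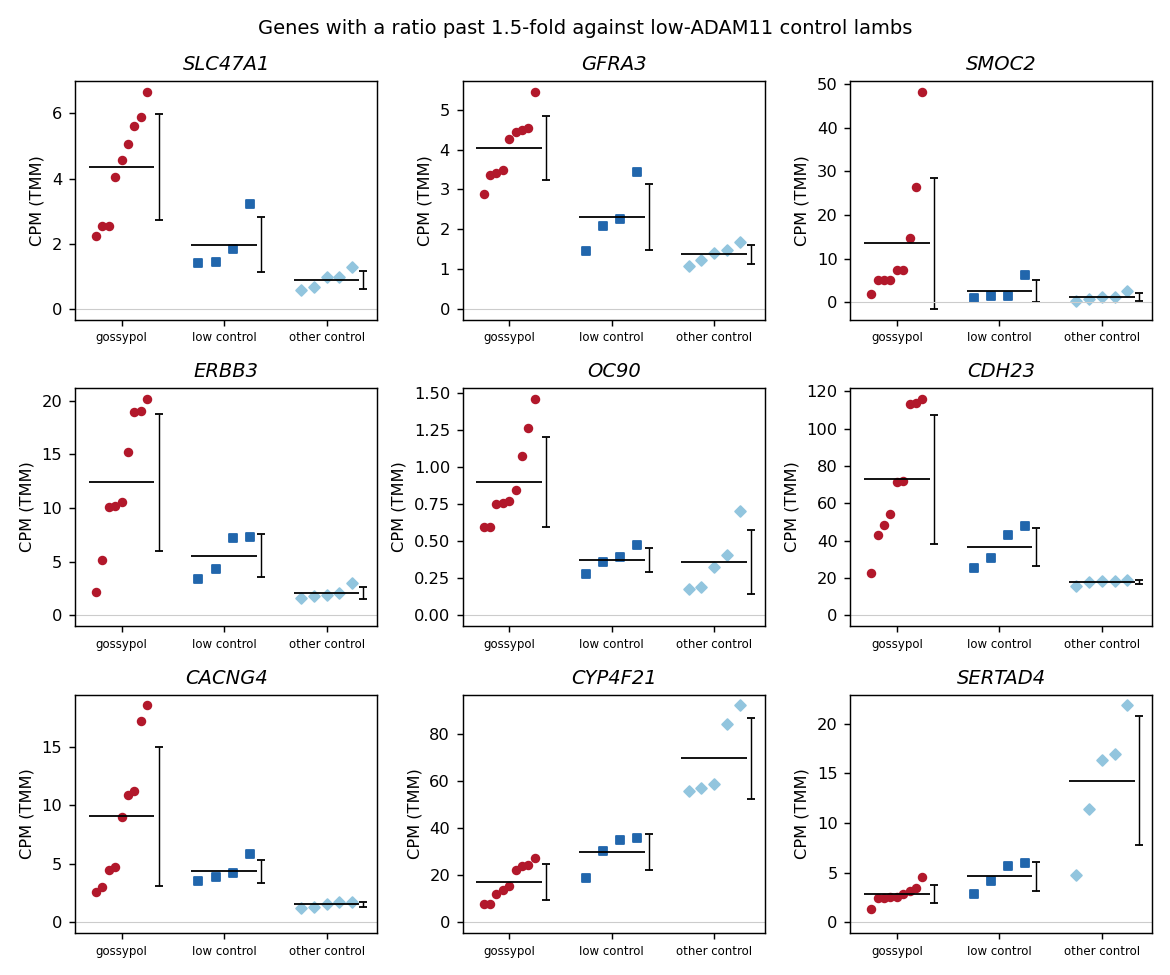
TMM-scaled CPM in each lamb of the 9 named genes whose mean in gossypol lambs was more than 1.5-fold from that of the low-ADAM11 control lambs (with 0.5 CPM added to each mean); points are lambs, horizontal lines are means and bars are 1 SD either side (n = 9, 4 and 5). In the 7 higher genes most gossypol lambs lie above most low-ADAM11 control lambs but only OC90 has no overlap, and in CYP4F21 and SERTAD4 the lower gossypol lambs lie under the control lambs.

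A further listed gene, UPK3B, was looked at after its values had been seen, because it was at least 2-fold higher than in the low-ADAM11 control lambs. Its ratio hardly moved with the choice of control lambs. UPK3B is a uroplakin known as a marker of mesothelium, the layer that covers the testis. It held 1.36 CPM in H31, 1.53 in H39, 1.61 in H44 and 2.18 in H32, and 1.70 ± 0.883 (SD, n = 5) in the other control lambs. In the gossypol lambs 6 held between 1.07 and 4.63, and H47, H08 and H25 held 19.7, 20.9 and 27.2.

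The log2 ratio of UPK3B was therefore 2.18 against the 4 control lambs and 2.17 against all 9, and it was carried by 3 lambs. The other mesothelium markers could not be matched to IDs, and the part of that tissue in these values was not tested. The remaining listed ID past 2-fold, ENSOARG00000004800, ran from 6.68 to 35.4 CPM in gossypol lambs and from 6.68 to 14.3 in the 4 control lambs, with 5 gossypol lambs above them.

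Gossypol lamb H01 took different places in different genes. It was the lowest gossypol lamb for ERBB3 and CDH23, under all 4 low-ADAM11 control lambs, yet the highest for SLC47A1 and for ADAM11. Lambs H48 and H12, which lay toward the other control lambs on the first component, had 2 of the 3 lowest gossypol values of SLC47A1 and GFRA3, and the 2 lowest of CACNG4.

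Among IDs without a symbol, those with the lowest p-values in the model with ADAM11 as covariate are described next, and none passed the FDR. SLC47A1 had the second lowest p in the higher direction. In that direction, ENSOARG00000019436 ran from 50.5 to 262 CPM in gossypol lambs and from 47.2 to 146 in the 4 control lambs, with a diet difference of 0.60 ± 0.14 (SE). ENSOARG00000018479 differed by 1.02 ± 0.30 (SE) in the same direction. Both were nonetheless lower in gossypol lambs than in all 9 control lambs, with log2 ratios of −1.45 and −1.94, so the sign of the difference turned once ADAM11 was held equal.

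In the lower direction, ENSOARG00000010944 held 316 CPM in control lamb H32 and 22.9 in H31, while the other 16 lambs held at most 9.39, so 2 animals made its difference. It was the ID called by DESeq2 with ADAM11 as covariate. ENSOARG00000017877, which shares its counts with 1 other ID, held 18.8 CPM in H32, 21.5 in H31, 21.8 in H39 and 44.4 in H44, and from 9.69 to 35.2 in the gossypol lambs. Its ratio was −0.25 against the low-ADAM11 control lambs and 0.32 against all 9.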

How the data were processed

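Testis RNA of 18 lambs was sequenced from polyA-selected libraries, 1 library per lamb. The authors trimmed the reads with Trim Galore 0.4.4, aligned them to the sheep assembly Oar_v3.1 with TopHat2 2.1.1, assembled transcripts with Cufflinks 2.2.1 and counted reads with HTSeq; strand is not stated. The deposited values are raw counts for 29589 IDs, 22758 Ensembl IDs and 6831 assembled loci. Totals of 14468612 to 22334428 counts limit precision for IDs with few counts. Files carry no symbols or positions: 21 symbols come from the study's labelled plot and gene list, UPK3B was added later, and none of the IDs occurs in the RefSeq table used, so marker lists of other cell types were not run and no sequence is shown. Of the tested IDs, 1371 share their counts with another.

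IDs were filtered with filterByExpr (minimum count 10, minimum total 15), scaled by TMM and tested with edgeR 4.0.16 in R 4.3.3 (glmQLFit and glmQLFTest) with Benjamini-Hochberg adjustment; the covariate was log2 CPM of ADAM11 with a prior count of 2. DESeq2 1.42.0 was an alternative. The scripts were tested on simulated data. Lambs, limit, genes and lists were chosen with earlier results of these data known. Named genes were those with a symbol, plus up to 2 IDs per direction that were separated or had the lowest p at equal ADAM11. Labels give single animals, and no pair of libraries agreed within sampling noise. Other scalings, filters, pseudocounts (0.1 and 2 CPM), all 9 control lambs, the first component as covariate and leaving out lambs were tried.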

Additional observations from a re-analysis of the deposited data

Results flagged for a closer look

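Of 62 groups of values examined, 1 held a lamb far from the others, and chance alone marks about 1 group in 20. In ENSOARG00000007845, control lamb H32 stood above the other 3 low-ADAM11 control lambs: its log2(CPM + 0.5) was 4.67 and the nearest was 4.09, a gap of 0.843 of the whole range against a critical value of 0.829 for 4 lambs. This was the ID whose ranges were apart with a 2-fold ratio, and the ratio includes H32.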

How the results depend on the processing

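The diet test over all lambs, with 0 calls at an FDR of 5%, gave 882 with DESeq2 and 0 to 1271 when single lambs were left out (19 without H01, 66 without H39, 106 without H32, 492 without H48, 1271 without H44). At equal ADAM11, 0 calls became 1 with DESeq2 and 0 to 1 with single lambs left out. That 1 ID was ENSOARG00000010944 both times, called in the second case without H44 (adjusted p = 0.0480 in edgeR). With single lambs left out, the count at an unadjusted p under 0.05 ran from 260 to 530, beside 296 with all lambs. It was 911 with no filter on low counts, where 29588 IDs were tested. No call appeared with the first component as covariate.

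The 1 ID that was separated and 2-fold became 0 with scaling by file total, relative log expression (RLE) scaling, a filter of 1 CPM in 9 lambs, a pseudocount of 2 CPM, all 9 control lambs, identical IDs collapsed, or without H41. It became 2 with no filter, 3 with a pseudocount of 0.1 CPM, 5 without H41 and H01, and 1 to 14 with single control lambs left out (4 without H32, 3 without H39, 14 without H44). The 15 IDs with ranges apart became 6 by file total, 26 with no filter, 8 with the 1 CPM filter, 2 with all 9 control lambs, 27 without H41, 68 without H41 and H01, and 29 to 149 with single control lambs left out (149 without H44). The 36 IDs 2-fold higher became 60 with no filter, 81 and 9 with pseudocounts of 0.1 and 2 CPM, 148 with all 9 control lambs, and 35 to 73 with single control lambs left out. The 20 IDs 2-fold lower became 10 with a pseudocount of 2 CPM, 248 with all 9, 32 without H41 and H01, and 20 to 35. The highest of both ranges was without H44.

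Of the study's list, 5 IDs were 2-fold in the listed direction, and 9 and 2 with pseudocounts of 0.1 and 2 CPM, 70 with all 9 control lambs, 10 without H01, 9 without H41 and H01, and 3 to 11 with single control lambs left out (3 without H32, 11 without H44). With all 9, the median ratios were −1.81 for the 62 lower IDs with ADAM11 and 1.35 for higher IDs and −3.09 for ADAM11. In the other alternatives they kept their sign, at −0.304 to −0.128, 0.657 to 0.840 and −0.870 to −0.282.

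Of the named genes at equal ADAM11, none of them called, some changed sign. With the first component as covariate, VSIG1 was −0.16, SLC4A5 −0.19 and KIAA1210 −0.36. With no covariate, CST9L was −3.26, MAGEB18 −2.56, VSIG1 −3.76, SLC4A5 −4.36, KIAA1210 −3.74 and MAGEA10 −3.53. With single lambs left out, LRRC8B ran from −0.167 to 0.092, MAGEB18 −0.043 to 0.50, VSIG1 −0.26 to 0.69, SLC4A5 −0.39 to 0.60, KIAA1210 −0.24 to 0.43, FATE1 −0.17 to 0.10, PRND −0.25 to 0.33, MAP3K15 −0.296 to 0.062, MAGEA10 −0.23 to 0.80 and FAM84A −0.25 to 0.17. The 7 higher named genes, CYP4F21 and SERTAD4 kept their sign in every alternative run. The cause of these shifts was not tested. Depth limits OC90 most, with 3 to 27 counts per library. Leaving out gossypol lambs H41 and H01, single lambs from the tests, H22 for VSIG1 and ADAM11 from its list were alternatives chosen after seeing the data.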
